A study of Macaca mulatta with 4 samples.

Results

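The genes described here are transcription factors of the trophectoderm, the outer epithelium of the blastocyst that goes on to form the placenta. The rule named 7 symbols, GATA2, GATA3, TFAP2A, TFAP2C, GCM1, ELF3 and KLF5, and took for each the Ensembl macaque gene identifier with the most reads. Of these, 6 were found among the 21314 genes of the count table. KLF5 had no matched identifier and was not analysed here, and neither were CDX2, EOMES and TEAD4, other central factors of this lineage. RNA had been sequenced from rhesus macaque (Macaca mulatta) morulae, the stage of the compacting embryo before the blastocyst cavity forms. Gynogenetic (GG) embryos, whose nuclear DNA comes from the mother alone, gave 2 libraries. They were set against androgenetic (AG) embryos, whose nuclear DNA comes from the father alone, which also gave 2 libraries. Embryos with both parental genomes were not analysed here. The labels give no further allele or treatment, do not make clear how many embryos entered a library, and do not say that replicates came from separate animals. The p-values therefore measure the spread between these libraries, which may be partly technical.

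In mouse embryos, trophectoderm identity is set when outer cells of the morula polarise and shut off Hippo signalling, which lets the coactivator YAP work with TEAD factors on lineage genes. TFAP2C and TFAP2A (AP-2 family) and GATA2 and GATA3 (zinc finger family) are known from mouse and human work as early regulators of trophoblast genes. GCM1 is known in human and mouse placenta as the driver of fusion into syncytiotrophoblast, and ELF3 is an epithelium-specific ETS factor.

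Total estimated counts were 21335918 and 29733977 in GG replicates 1 and 2, and 14129608 and 19108735 in AG replicates 1 and 2. Across genes, Spearman's correlation was 0.959 between the GG libraries and 0.935 between the AG libraries. It was 0.882 to 0.888 between the GG libraries and AG replicate 1, and 0.907 to 0.908 between the GG libraries and AG replicate 2. The core embryonic genes POU5F1 and NANOG, looked up after values were seen, were present in each library, at 180.9 to 479.2 CPM and 25.04 to 150.5 CPM, and were not called. POU5F1 passed without AG replicate 2 (edgeR adjusted p = 0.00848) and NANOG without AG replicate 1 (0.00722). CPM is a gene's count per 1000000 counts of the TMM-adjusted library; it is not adjusted for gene length, so levels are compared between libraries and not between genes.

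The factors split into a set that was higher in GG morulae and a set that was not. ELF3, GATA2 and GCM1 rose in GG, and GATA2 and GCM1 had at most 1 count in an AG library. TFAP2C, TFAP2A and GATA3 did not pass the test, and the fitted differences of these genes were negative or close to 0. Of the 6 factors, 3 were called higher in GG and 0 lower, with edgeR's quasi-likelihood test at a Benjamini-Hochberg adjusted p under 0.05 over all 13227 genes tested. At an unadjusted p under 0.05 there were 4, and DESeq2 called 4, the addition in both being TFAP2C. Over all tested genes, edgeR called 12.9% (6.34% higher in GG and 6.58% lower), and DESeq2 called 25.7%. All 6 passed the filter on low counts, but GATA2 and GCM1 passed it through the GG libraries alone, so that a call in the other direction was not open to them. The GG and AG libraries did not overlap for 4 of the 6 factors, beside 64.1% of all tested genes, a share near that background. The median log2 fold change (GG minus AG) was 2.05 over the 6 factors and 0.04 over all tested genes. The value of 2.05 is the midpoint between ELF3 (4.15) and GATA3 (-0.06), and no factor lies near it. It depends on counting GATA2 and GCM1, to which a call in the other direction was not open. GATA2 at its lower bound (5.25) still lies above ELF3, so that bound cannot move the median. In these bulk libraries, fewer cells of a type and less RNA per cell cannot be told apart.

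**Figure D1:**
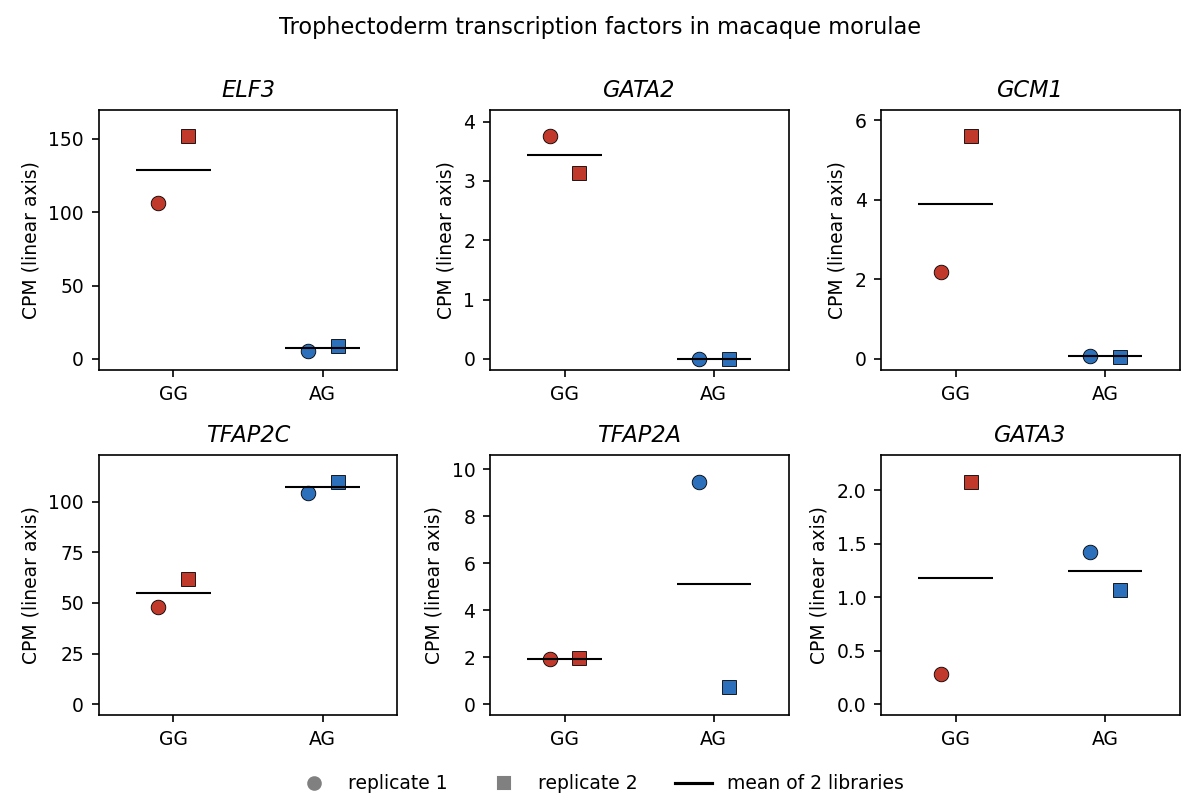
Level of each factor in CPM (linear axes, each panel with its own scale) in the 2 GG and 2 AG libraries; circles are replicate 1, squares replicate 2 and lines the mean of 2 libraries. ELF3, GATA2 and GCM1 sit higher in both GG libraries, TFAP2C sits lower in both, and TFAP2A and GATA3 overlap between the groups.

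ELF3 (ENSMMUG00000001929), the epithelial ETS factor, had 106.2 and 151.6 CPM in GG replicates 1 and 2, against 5.70 and 8.79 CPM in AG replicates 1 and 2. Both GG libraries stood far above both AG libraries, and within each group replicate 2 was the higher. Its level averaged 129 ± 32.1 CPM in GG and 7.24 ± 2.18 CPM in AG (SD, n = 2 each). The fitted difference was 17.7-fold, a log2 fold change of 4.15 ± 0.40 SE (edgeR adjusted p = 0.00871). ELF3 was the factor with the most reads behind a call, at 2236 and 4447 counts in GG and 80 and 173 in AG. It was also the single factor whose deposited counts were not whole in every library, as happens where an estimate divides reads that map to several places. Without GG replicate 2 its call ended (edgeR adjusted p = 0.0608, log2 fold change 3.85), while it passed without any other library. Over the alternatives its adjusted p ran from 1.07e-20 to 0.0608.

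GATA2 (ENSMMUG00000021371), a zinc finger factor shared by trophoblast and blood progenitors, had 79 and 92 counts in GG replicates 1 and 2 and 0 counts in both AG libraries. In CPM these were 3.75 and 3.14 in GG, against 0 in AG, where a count of 0 allows up to 0.214 CPM in replicate 1 and 0.152 CPM in replicate 2. GATA2 was thus detected in GG and not detected in AG at this depth. With AG set at 3 counts over the group, it was at least 38.2-fold higher in GG, and it was called (edgeR adjusted p = 0.0254). With each library thinned to the total of the shallowest, the GG counts were 50 and 43 and the AG counts 0 and 0. The call was lost without GG replicate 1 (adjusted p = 0.142) and without GG replicate 2 (0.135), and the alternatives ran from 6.14e-05 to 0.142.

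GCM1 (ENSMMUG00000022083), the syncytiotrophoblast factor, had 46 and 164 counts in GG replicates 1 and 2 and 1 count in each AG library. Its level was 2.18 and 5.59 CPM in GG, against 0.0712 and 0.0508 CPM in AG. The groups lay far apart, although GG replicate 2 was 2.56 times GG replicate 1. The ratio of GG to AG was 70.3 (exact 95% counting interval 19.2 to 584), and the gene was called (edgeR adjusted p = 0.0269). The call ended without GG replicate 1 (adjusted p = 0.0878) and without GG replicate 2 (0.219), within alternatives of 0.000331 to 0.219.

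TFAP2C (ENSMMUG00000009364), the AP-2 factor of early trophoblast and of germ cells, had 48.1 and 61.7 CPM in GG replicates 1 and 2, against 104.2 and 110.1 CPM in AG replicates 1 and 2. Both GG libraries lay below both AG libraries, and the AG pair differed by less than the GG pair. The means were 54.9 ± 9.60 CPM in GG and 107 ± 4.13 CPM in AG (SD, n = 2 each), a log2 fold change of -0.96 ± 0.28 SE. This difference missed the threshold with edgeR (adjusted p = 0.0779) and passed it with DESeq2 (0.0229). The highest value over the alternatives was 0.478.

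TFAP2A (ENSMMUG00000006186), its AP-2 paralog, had 1.90 and 1.94 CPM in GG replicates 1 and 2, against 9.47 and 0.711 CPM in AG replicates 1 and 2. The GG libraries were nearly equal and lay between the AG libraries, of which replicate 1 stood 13.3 times above replicate 2. The gene was not called (log2 fold change -1.40 ± 1.14 SE, edgeR adjusted p = 0.448). Its direction rested on AG replicate 1. Without that library the log2 fold change was 1.42 (adjusted p = 0.329), and without AG replicate 2 it was -2.32 and passed the test (0.0278, the lowest of alternatives that reached 0.811). That fit has a lone AG library, assumed to vary like the GG pair, and lacks the gap within AG. The AG values rest on 133 counts in replicate 1 and 14 in replicate 2, against 40 and 57 in the GG libraries, and the source of the gap within AG was not tested.

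GATA3 (ENSMMUG00000006944), a central trophectoderm regulator in mouse and human embryos, was low in all 4 libraries. It had 0.285 and 2.08 CPM in GG replicates 1 and 2, against 1.42 and 1.07 CPM in AG replicates 1 and 2. These values rest on 6 and 61 counts in GG and 20 and 21 counts in AG. The AG libraries were close together and lay between the GG libraries, of which replicate 2 was 7.30 times replicate 1. The log2 fold change was -0.06 ± 1.04 SE (edgeR adjusted p = 0.975), with an SE as large as a 2-fold difference. It was 0.75 without GG replicate 1, -2.13 without GG replicate 2 and 0.16 without AG replicate 1, and it was not called in any of these fits (adjusted p = 0.777, 0.558 and 0.950, within alternatives of 0.558 to 0.991).

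**Figure D2:**
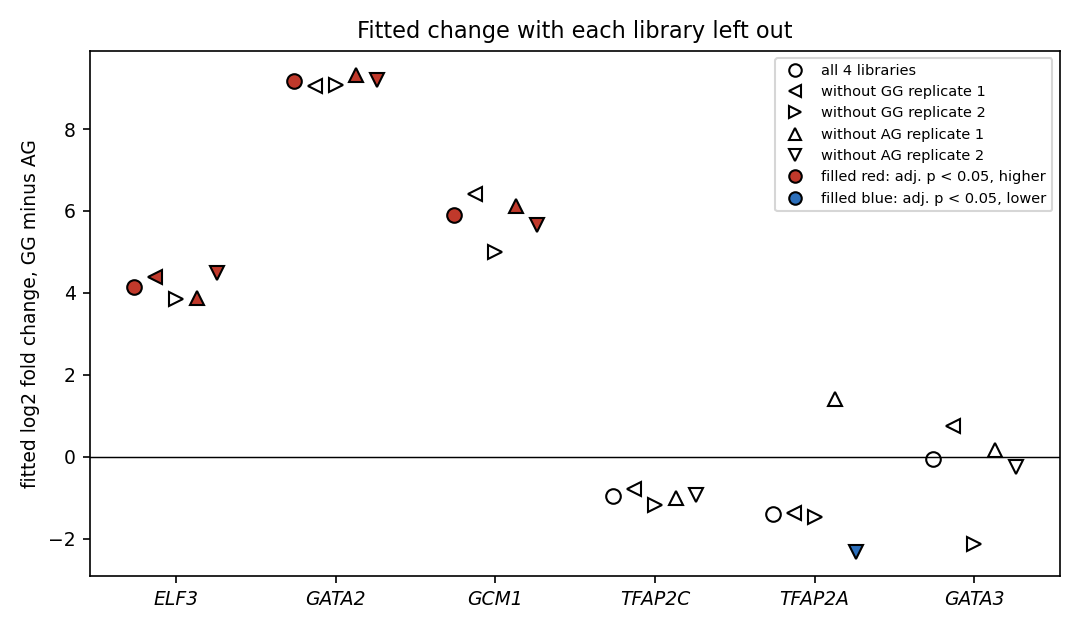
Fitted log2 fold change (GG minus AG) of each factor with all 4 libraries and with each library left out; red and blue fill mark an edgeR adjusted p under 0.05, higher and lower in GG. ELF3, GATA2 and GCM1 stay above 0 in each fit but lose calls when a GG library is left out. TFAP2A lies at 1.42 with AG replicate 1 left out and at -1.40 with all 4 libraries. GATA2 had 0 counts in AG, so the size and steadiness of its fitted values are not measured, and its lower bound with all 4 libraries is 5.25.

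With each library left out in turn, the number of factors called was 1 without GG replicate 1 (ELF3) and 0 without GG replicate 2. In the fit without GG replicate 2, edgeR gave 3 factors an unadjusted p under 0.05, and DESeq2 was not run on it. It was 3 without AG replicate 1 and 4 without AG replicate 2, where TFAP2A was added. Where a GG library was left out, the lone GG library was assumed to vary like the AG pair, and a lone AG library like the GG pair. Without GG replicate 1 or 2 the calls over all genes fell to 119 and 84, against 1709 with 4 libraries.

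The make-up of the summed counts of the 6 factors differed between the groups. ELF3 held 65.4% (95% Wilson interval 63.8 to 67.0) and 67.1% (65.9 to 68.2) of them in GG replicates 1 and 2, against 4.71% (3.80 to 5.83) and 7.28% (6.30 to 8.40) in AG replicates 1 and 2. TFAP2C held 29.6% and 27.3% in the GG libraries, against 86.2% and 91.2% in the AG libraries. Each GG library thus had more ELF3 than TFAP2C counts, and each AG library the reverse. The intervals cover counting error alone, and the shares are of reads, not of transcripts, since gene length is not taken into account. The summed level was 162.4 and 226.1 CPM in GG and 120.9 and 120.7 CPM in AG.

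**Figure D3:**
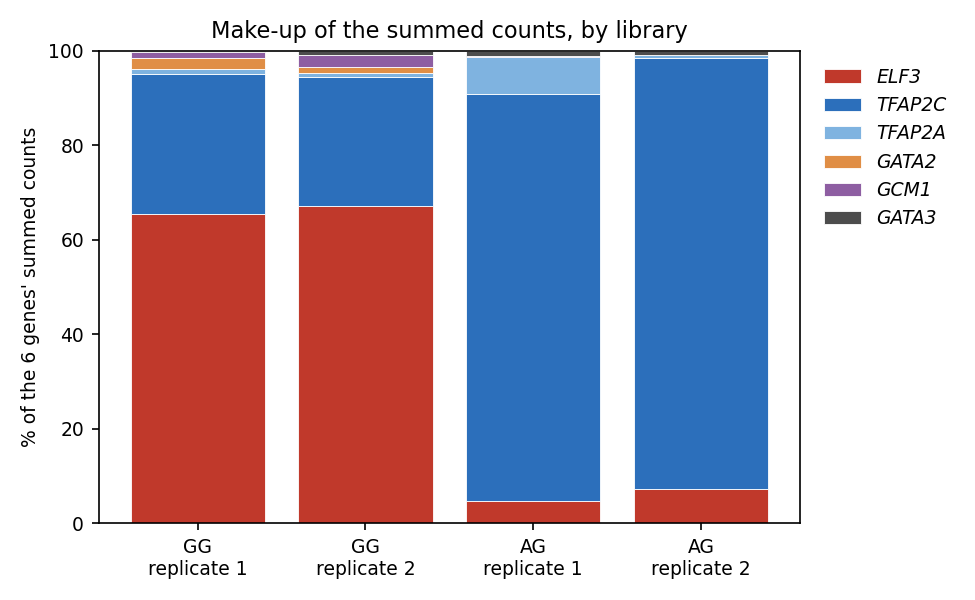
Share of each factor in the summed counts of the 6 factors, in percent, for each GG and AG library. ELF3 makes up 65.4% and 67.1% in the GG libraries and 4.71% and 7.28% in the AG libraries, where TFAP2C makes up 86.2% and 91.2%.

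Ratios of paralogs within a library do not depend on the scaling between libraries. GATA2 had 13.2 counts per GATA3 count in GG replicate 1 and 1.51 in GG replicate 2. In both AG libraries GATA2 had 0 counts beside 20 and 21 of GATA3. The GATA2 to GATA3 ratio was therefore higher in both GG libraries. For the AP-2 pair, there were 25.3 and 31.7 TFAP2C counts per TFAP2A count in GG replicates 1 and 2, against 11.0 and 155 in AG replicates 1 and 2. The AG values lay on both sides of the GG values, so the AP-2 ratio did not separate the groups. With 2 libraries a group an exact permutation test cannot reach the threshold, and none was run.

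Relatives in the same gene families were read from the same fit. Of the GATA genes, 4 of 6 were tested and 1, GATA2, was called. GATA4 and GATA6, factors of primitive endoderm, had log2 fold changes of 0.36 ± 0.54 and 0.09 ± 0.60 SE. GATA1, the red cell factor, had 0 counts in each library, and GATA5 had 3 counts in 1 library. In the AP-2 family, 0 of 4 tested genes were called with edgeR (1 at an unadjusted p under 0.05, and 1 with DESeq2, in both TFAP2C), and TFAP2B and TFAP2D had log2 fold changes of 1.21 ± 0.72 and -0.74 ± 1.67 SE. GCM2, the parathyroid paralog of GCM1, had 0 and 2 counts in GG and 15 and 1 in AG, and was not tested. Among the ETS relatives, ELF3 was the called gene of 4 tested. The broadly expressed ELF1, ELF2 and ELF4 had log2 fold changes of -0.68 ± 0.41, 0.38 ± 0.30 and -0.05 ± 0.42 SE, and the epithelial relatives ELF5 and EHF were not tested, ELF5 with 0 counts in each library. Whether the change of a factor differed from that of a relative was not tested.

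KLF5 itself had no matched identifier, and whether it was counted under an identifier without a symbol was not tested. Of 11 other Krüppel-like factor genes tested, 2 were higher in GG, 1 was lower and 8 were not called. Over all tested genes, edgeR called 12.9% and DESeq2 25.7%, and whether this family differed from those shares was not tested. KLF8 had 42.1 and 53.5 CPM in GG, against 2.07 and 0.406 CPM in AG (log2 fold change 5.31 ± 0.80 SE, edgeR adjusted p = 0.0212). KLF7 had 139 and 98 counts in GG and 1 and 2 in AG, a ratio of GG to AG of 52.9 (exact 95% counting interval 17.9 to 258). KLF17, a gene of early primate embryos, went the other way, with 2.37 and 0.614 CPM in GG against 34.2 and 21.4 CPM in AG (log2 fold change -4.23 ± 0.76 SE, adjusted p = 0.0294). The calls of these 3 genes ended without GG replicate 1 (adjusted p = 0.0817, 0.153 and 0.0707) and without GG replicate 2 (0.107, 0.0969 and 0.127), the highest of their alternatives. The log2 fold change of KLF8 was 6.85 without AG replicate 1 and 4.51 without AG replicate 2, and that of KLF17 was -5.48 without GG replicate 1 and -3.58 without GG replicate 2. KLF4, a pluripotency factor, had 117.8 and 139.7 CPM in GG against 50.7 and 89.3 CPM in AG. With 4 libraries it was not called (edgeR adjusted p = 0.159). Its log2 fold change was 0.88 with 4 libraries, 0.52 without AG replicate 1 and 1.33 without AG replicate 2, so its size depended on the AG library kept. The other uncalled members were KLF3, KLF6, KLF10, KLF11, KLF12, KLF13 and KLF14, with log2 fold changes from -1.29 to 3.10. That of KLF10 was -0.67 with 4 libraries, -0.09 without AG replicate 1 and -1.12 without AG replicate 2. DESeq2 called 6 of the 11, adding KLF3, KLF6 and KLF14 (adjusted p = 0.00821, 0.000832 and 0.0404). With edgeR, KLF6 also passed without a filter (adjusted p = 0.0145). Its log2 fold change was 3.05 with 4 libraries, 2.27 without AG replicate 1 and 4.89 without AG replicate 2. KLF3 passed with edgeR without a filter (0.0311) and with a mean of at least 10 CPM (0.0486). Its log2 fold change was -1.29 with 4 libraries, -1.66 without AG replicate 1 and -0.82 without AG replicate 2.

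**Figure D4:**
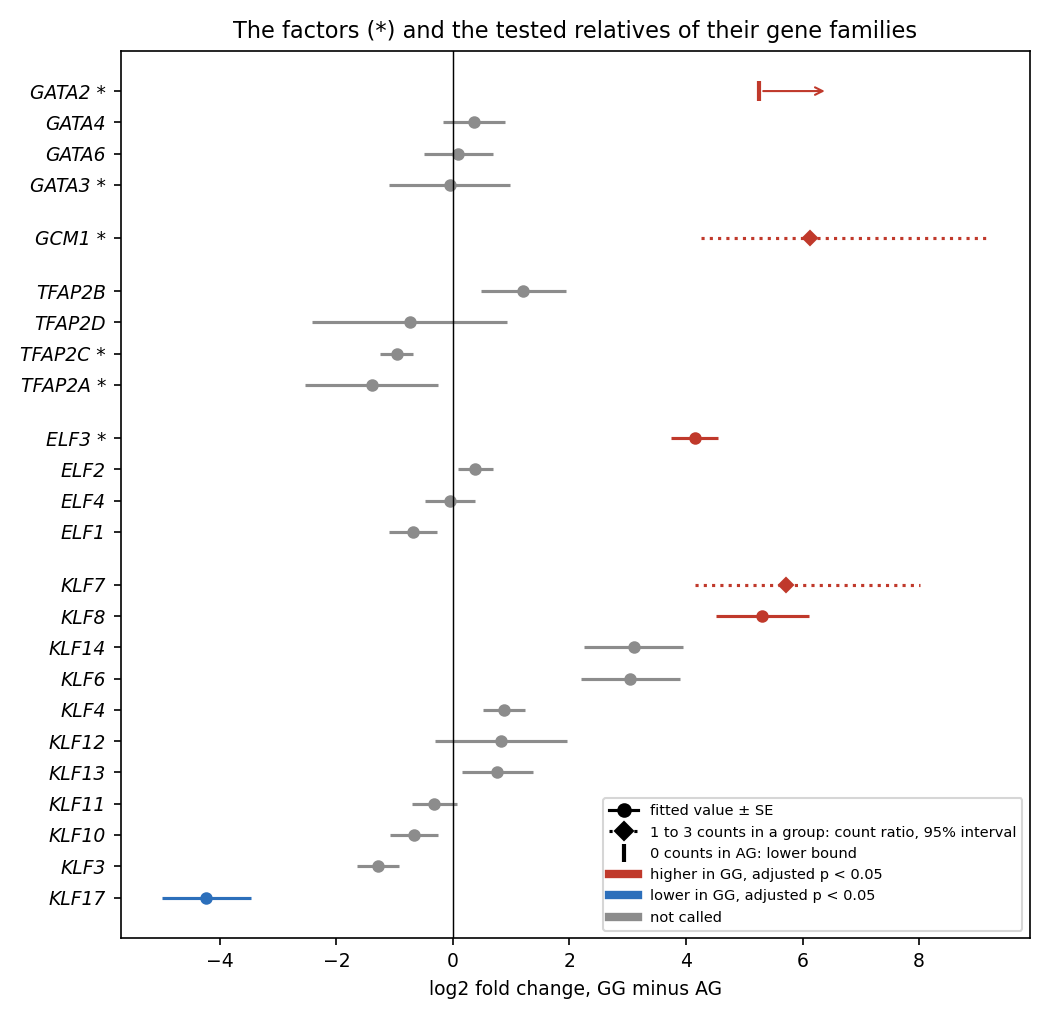
Log2 fold change (GG minus AG) of the factors, starred, and of the tested relatives in each gene family; circles with bars are fitted values ± SE, diamonds with dotted lines are count ratios with 95% counting intervals, and the arrow is a lower bound. GATA2, GCM1 and ELF3 are the called genes of their families, and the Krüppel-like factors hold calls in both directions.

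Of 31 other trophectoderm regulators listed, 23 matched and 14 were tested; 1 was higher in GG, 1 was lower and 12 were not called, with a median log2 fold change of 0.25. This share was near that of all tested genes (12.9%), and DESeq2 called 4, 2 in each direction. TBX3, a T-box factor, had 11.5 and 6.14 CPM in GG against 1.496 and 1.32 CPM in AG (log2 fold change 2.64 ± 0.60 SE, edgeR adjusted p = 0.0455). That call ended with the replicate block (0.0536) and without GG replicate 1 or 2 (0.298 and 0.168). ID1, an inhibitor of helix-loop-helix factors, had 6.03 and 5.59 CPM in GG, against 149.6 and 32.96 CPM in AG (log2 fold change -3.97 ± 0.77 SE, adjusted p = 0.0333). Its call ended without GG replicate 1 or 2 as well (0.171 and 0.189). GRHL2, a grainyhead factor of epithelia, had 203 and 487 counts in GG against 14 and 0 in AG and was not called (adjusted p = 0.0772), although it passed without AG replicate 1 (0.00663), without AG replicate 2 (0.0134), without a filter (0.0135) and with DESeq2 (0.000578). HEY1, a Notch target, had a log2 fold change of -1.003 ± 0.34 SE and was not called (adjusted p = 0.105), but passed with DESeq2 (0.0380) and without AG replicate 1 (0.0451). ELF5, ARID5B and HOPX had 0 counts in each library.

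Among 20 tested structural markers of trophectoderm, which include keratins, junction and transport genes, 6 were higher in GG, 0 were lower and 14 were not called, with a median of 1.29. DESeq2 called 12 of them, 9 higher and 3 lower in GG. Over all tested genes, edgeR called 6.34% higher and 6.58% lower in GG, and DESeq2 called 25.7%. Whether the list differed from these shares was not tested. S100P, LRP2 and CLDN4, which encode a calcium-binding protein, an endocytic receptor and a tight junction claudin, were called in each fit that left out a library. LRP2 had 77.8 and 70.8 CPM in GG, against 0.570 and 0.914 CPM in AG. The adhesion gene CDH1 had 49.6 and 67.7 CPM in GG, against 12.0 and 15.1 CPM in AG, and lost its call without GG replicate 1 or 2 (adjusted p = 0.136 and 0.215, against 0.0261 with 4 libraries). Other genes of the list, chosen after their values were seen, lay lower in both GG libraries than in both AG libraries and were not called with edgeR. The water channel gene AQP3 had 22.3 and 19.2 CPM in GG, against 315.3 and 28.04 CPM in AG (log2 fold change -3.05 ± 1.05 SE, edgeR adjusted p = 0.112). Its AG level rested on replicate 1, without which the log2 fold change was -0.44. The amino acid transporter gene SLC7A2 had 9.78 and 6.96 CPM in GG, against 21.9 and 55.97 CPM in AG (-2.22 ± 0.55 SE, adjusted p = 0.0539). The endocytic adaptor gene DAB2 had 23.98 and 70.5 CPM in GG, against 126.3 and 186.9 CPM in AG (-1.73 ± 0.56 SE, adjusted p = 0.0960). All 3 passed with DESeq2 (0.00222, 0.000699 and 0.0113) and without a filter (0.0209, 0.0125 and 0.0270). AQP3 also passed without AG replicate 2 (0.000912), SLC7A2 without AG replicate 1 (0.00944) and DAB2 with the replicate block (0.0339). The summed level of the 21 matched markers was 726.5 and 1232 CPM in GG and 653.8 and 379.0 CPM in AG.

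Genes of the syncytiotrophoblast, the fused layer that GCM1 drives in placenta, were next examined. Of 14 matched, 6 were tested and 0 were called with edgeR (1 at an unadjusted p under 0.05 and 1 with DESeq2, in both PGF). PGF, placental growth factor, had 6.36 and 15.3 CPM in GG, against 1.78 and 2.13 CPM in AG (log2 fold change 2.46 ± 0.63 SE, edgeR adjusted p = 0.0569). It passed without a filter (edgeR adjusted p = 0.0254). The fusogen gene ERVFRD-1 had 7 and 11 counts in GG and 11 and 17 in AG, and its log2 fold change was -1.20 ± 0.78 SE. SDC1 had 20 and 20 counts in GG and 3 and 0 in AG, and SLC13A4 had 13 and 101 in GG and 8 and 10 in AG, and neither was called. The steroid synthesis gene HSD17B1 had 46.3 and 16.3 CPM in GG, against 25.4 and 4.88 CPM in AG, and CYP11A1, which cumulus cells also express, had 13.1 and 29.3 CPM in GG, against 3.21 and 15.8 CPM in AG. The groups overlapped for both, and neither was called with 4 libraries (edgeR adjusted p = 0.451 and 0.385). With a library left out, log2 fold changes ran from 0.13 to 2.67 for HSD17B1 and from 0.41 to 2.71 for CYP11A1. The value of 2.71 came without AG replicate 2. The hormone subunit gene CGA had 0 and 1 counts in GG and 2 and 1 in AG, KISS1 and TFPI2 had 0 counts in each library, and HSD17B1, CGA, KISS1 and TFPI2 were looked up after values were seen.

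**Figure D5:**
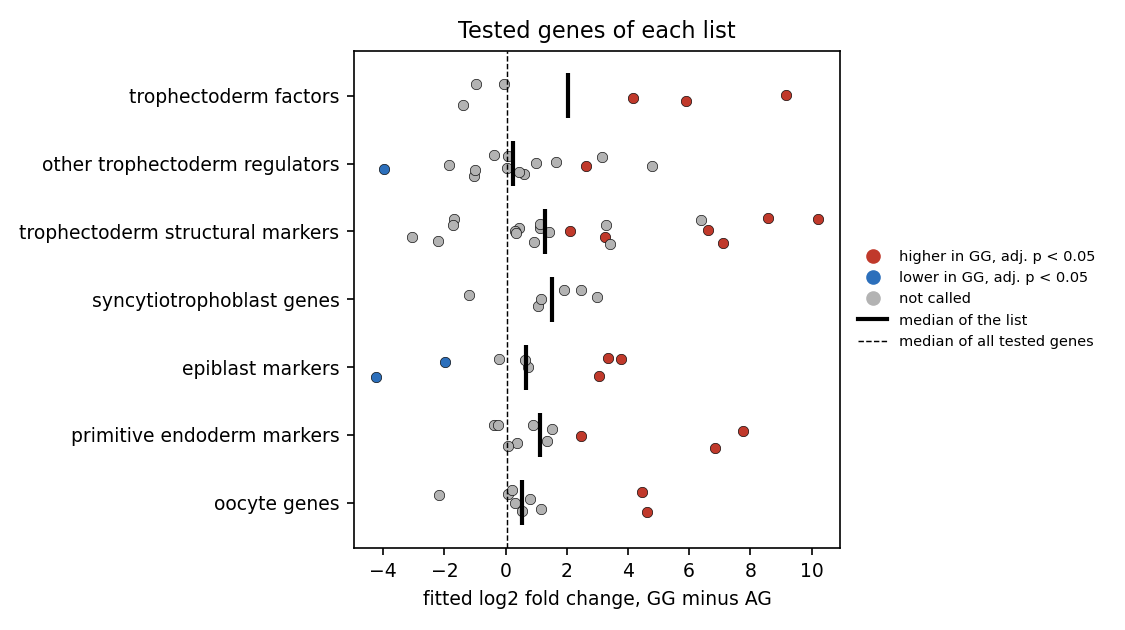
Fitted log2 fold change (GG minus AG) of the tested genes of each list; red and blue points are genes called higher and lower in GG, grey points are not called, thick bars are list medians and the dashed line is the median of all tested genes. The trophectoderm factors fall into 3 called points above 4 and 3 uncalled points at or below 0. GATA2 had 0 counts in AG, so its fitted value (9.18) is not a measured size, and its lower bound is 5.25.

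Markers of other cells that a morula library could hold also differed between the groups, and their part in the results above was not tested. Over all tested genes, edgeR called 12.9% and DESeq2 25.7%, and whether these lists differed from those shares was not tested. Of 8 tested epiblast markers, 3 were higher in GG and 2, KLF17 and DPPA4, were lower. The summed level over the 9 matched genes was 1166 and 1506 CPM in GG and 538.5 and 520.2 CPM in AG. DPPA2 alone had 488.1 and 820.4 CPM in GG, against 100.7 and 28.4 CPM in AG, most of that gap. It was looked up after values were seen. Of 10 tested primitive endoderm markers, 3 were higher in GG and 0 lower, with sums over 14 matched genes of 603.9 and 683.7 CPM in GG and 144.0 and 223.4 CPM in AG. APOE, a lipid carrier, had 381.9 and 450.5 CPM in GG, against 0.570 and 3.15 CPM in AG, most of that gap. Without it the sums over 13 genes were 222.0 and 233.3 CPM in GG and 143.5 and 220.2 CPM in AG. The other called markers were LAMB1 and APOA1. LAMB1 had 56.3 and 67.9 CPM in GG, against 7.48 and 14.9 CPM in AG. APOA1 had 26 and 198 counts in GG, against 0 and 1 in AG. PDGFRA made up 114.6 and 93.3 CPM of the sums without APOE in GG, and 115.5 and 154.3 CPM in AG. The lineage genes GATA4, GATA6, PDGFRA and HNF4A were not called. PDGFRA and HNF4A, looked up after values were seen, had log2 fold changes of -0.38 ± 0.29 and -0.25 ± 0.64 SE. Of 9 tested oocyte genes, 2 were higher in GG and 0 lower. Sums over 13 matched genes were 504.2 and 512.6 CPM in GG and 436.4 and 322.5 CPM in AG. Most of each sum was OOEP, looked up after values were seen and not called, at 368.3 and 477.5 CPM in GG and 425.0 and 311.6 CPM in AG. The called genes were KPNA7 and WEE2. KPNA7 had 43.8 and 8.22 CPM in GG, against 0.712 and 1.37 CPM in AG. WEE2 had 73.8 and 18.4 CPM in GG, against 1.14 and 2.95 CPM in AG. Of 6 tested blood cell markers, 2 were lower in GG and 0 higher, with sums over 9 matched genes of 112.5 and 102.4 CPM in GG and 224.8 and 123.6 CPM in AG. DESeq2 called 5 of the 6, 3 lower and 2 higher in GG. PTPRC, with 6.46 and 3.44 CPM in GG against 140.9 and 65.9 CPM in AG, differed by more than the sums did. HBA went the other way, with 93.1 and 81.2 CPM in GG against 45.8 and 43.7 CPM in AG. In the epiblast, primitive endoderm and oocyte lists DESeq2 called as many genes as edgeR. Sums of the cumulus markers were 15.1 and 31.4 CPM in GG and 9.69 and 17.1 CPM in AG, with FSHR and NR5A1 at 0 counts in each library. Sums of the sperm markers were 2.75 and 0.989 CPM in GG and 2.49 and 0.356 CPM in AG, with PRM2, TNP2, ODF1 and SMCP at 0. In these last lists, 0 of 2 and 0 of 1 tested genes were called with edgeR, 0 had an unadjusted p under 0.05 and 0 were called with DESeq2.

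For each factor, the genes with the most similar pattern over the 4 libraries were looked up among 5945 tested genes with a symbol and a mean of at least 10 CPM. Likeness was the Euclidean distance between centred log2(CPM + 1) values. The nearest to ELF3 was SNX7, a sorting nexin, with 65.9 and 91.5 CPM in GG and 2.85 and 5.08 CPM in AG (distance 0.0948). LYN, a SRC-family kinase, came next (0.290). The nearest to GATA2 were COG6 and CIB1 (0.0991 and 0.128), and to GCM1 ARHGAP18 (0.259). GATA2 and GCM1 had 0 or 1 count in AG, where log2(CPM + 1) compresses their change, so these neighbours changed by less, with log2 fold changes of 2.36 for COG6, 2.16 for CIB1 and 2.12 for ARHGAP18. TFAP2C was nearest to P4HA1, a collagen prolyl hydroxylase, and HIF1AN, the asparaginyl hydroxylase of HIF1A (0.0669 and 0.0821). TFAP2A was nearest to FOS and ANP32E (0.375 and 0.461), of which ANP32E had 77.6 and 92.3 CPM in GG and 405.8 and 43.1 CPM in AG, again with AG replicate 1 on top. GATA3 was nearest to ZYX and TFRC (0.143 and 0.205). These distances rest on 4 libraries and describe those libraries alone.

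The neighbouring protein-coding genes in the RefSeq order of assembly T2T-MMU8v2.0, chosen by position after the factors' values were seen, were called in both directions. The counts were made on another build, so gene order alone was used. Of 12 neighbours of the 6 factors, 7 were tested, of which 1 was higher in GG, 1 was lower and 5 were not called. Over all tested genes edgeR called 12.9%, and 7 genes are too few to tell these loci from that share. RPN1, beside GATA2, was higher in GG, with 217.2 and 232.6 CPM against 71.2 and 78.0 CPM in AG (log2 fold change 1.59, edgeR adjusted p = 0.0218). ELOVL5, beside GCM1, was lower in GG, with 13.01 and 13.2 CPM against 42.5 and 45.2 CPM in AG (-1.74, adjusted p = 0.0294), opposite in direction to GCM1. Both calls ended without GG replicate 1 (0.169 and 0.242) and without GG replicate 2 (0.204 and 0.250). In that annotation 4 factors overlap another gene, namely GATA2 and TFAP2A with 2 lncRNA genes each, GATA3 with 1 further coding gene and GCM1 with 1 pseudogene. The strand setting of the counting is not given in the sources used here, so reads of such overlapping genes cannot be told apart from those of the factor.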

How the data were processed

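RNA of 2 GG and 2 AG macaque morula libraries was amplified with a SMARTer low-input kit, per the labels' protocols. The deposited values are estimated counts per Ensembl gene, unscaled, of which 30.0% to 32.2% a library were not whole. The submitters' processing notes name Trim Galore, STAR 2.6.0c, Salmon 0.12.0 and the rheMac8 build with no role. Annotation release and strand setting: not given in the sources used here. Symbols matched 14654 of 21314 identifiers (68.8%).

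Counts were rounded and tested with edgeR 4.0.16 in R 4.3.3: filterByExpr (minimum count 10, total 15), TMM, and a quasi-likelihood F test on group alone, adjusted over all tested genes (called under 0.05). The SE is the one implied by F. DESeq2 1.42.0 was an alternative, beside other scalings, filters, thinning, a replicate block and leaving out each library. The fit was tested on simulated data. A fold against 0 counts used 3 counts over the group; with 1 to 3 counts the ratio of summed counts is given. Reads carry no stated molecular identifiers, so intervals and floors cover counting error alone.

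The factors and gene lists were chosen with earlier results of these data known. Named genes were the factors, tested family relatives and up to 4 genes of smallest p per list. The 2 genes most like each factor in pattern were also named, and other choices of tested genes are marked. Some results that the rule selects are not reported here. No set test was run.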

Additional observations from a re-analysis of the deposited data

How the results depend on the processing

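Called genes numbered 1709 with 4 libraries, 3333 with DESeq2, 2609 without a filter and 84 to 3786 with each library left out. Of the 6 factors, 3 were called; with a mean of at least 10 CPM required, 2 were tested and 1 (ELF3) was called, and leaving out each library gave 0 to 4. Of the genes of all lists, 25 were called with edgeR and 41 with DESeq2. Over all tested genes these tests called 12.9% and 25.7%. The lists were chosen with earlier results known, and whether they differed from those shares was not tested. Leaving out a GG library ended most calls, and leaving out AG replicate 1 or 2 added calls over all genes (2217 and 3786). The replicate numbers share no stated origin, and same-numbered libraries deviated together with a correlation of 0.108 across genes. The replicate block gave 1697 calls and 3 factors; a crossed block, chosen after seeing the data, gave 1384 and 3. In the alternatives other than this crossed block, no gene called with 4 libraries changed sign.

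Changes of direction met genes not called. The log2 fold change of TFAP2D was 0.63 with the replicate block. That of FST, a cumulus marker, was 0.00778, against -0.0274 with DESeq2 size factors, -0.0299 with DESeq2 and -0.0176 without a filter. With each library left out, log2 fold changes ran from -2.13 to 0.75 for GATA3, -2.32 to 1.42 for TFAP2A, -0.19 to 0.74 for GATA4, -0.48 to 1.05 for GATA6, -1.80 to 6.92 for TFAP2D, -0.26 to 0.11 for ELF4, -0.38 to 2.78 for KLF12, -0.51 to 0.75 for FST, -0.28 to 1.85 for ZP2, -0.88 to 0.31 for ZYX, -0.95 to 0.22 for TFRC, -1.90 to 0.40 for FOS, -0.89 to 0.25 for HNF4A, -0.17 to 2.43 for NANOG and -2.27 to 0.97 for ANP32E. The causes were not tested. The GATA2 to GATA3 and TFAP2A to TFAP2C ratios and the ELF3 share moved by less than the spread between replicates after thinning. The ratios also did so with 1 count added. That spread was wide for the ratios, so a sizeable shift could have stayed within it. The log2 GATA2 to GATA3 ratio was 3.61 and 0.59 in the GG libraries, and the log2 TFAP2A to TFAP2C ratio -3.45 and -7.22 in the AG libraries. Depth limits GATA2 and GCM1 in AG and GATA3 in each library.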
